A study of Mus musculus with 7 samples.

Results

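The genes described here are 9 basic helix-loop-helix (bHLH) and Id genes of neural differentiation, namely Neurod2, Neurod4, Neurog1, Neurog3, Atoh7, Hes6, Hey2, Id2 and Id4. They were taken by name: every probe set with exactly 1 gene symbol in the platform annotation, that symbol being 1 of these 9, was used. All 9 were found, with 35 of the 53644 probe sets and 9 of the 5017 genes that carry a single symbol. Affymetrix arrays measured messenger RNA in mouse retinal pigment epithelium (RPE), a single sheet of pigmented cells that supports the photoreceptors, taken at postnatal day 5. There were 3 arrays of Dicer1-deficient RPE, with the genotype Dicer1loxP/loxP;Dct-Cre, and 4 arrays of control RPE. The Dicer1 enzyme is needed to make most mature microRNAs from their hairpin precursors. The Cre recombinase was driven by the promoter of dopachrome tautomerase, which is active in pigment cells generally, melanocytes as well as RPE. The labels do not state the genotype of the controls. They describe 1 cross for all samples, Dicer1 flox/+ mice with the Cre transgene mated to homozygous floxed mice, so that by this cross each pup carries at least 1 floxed allele. Whether each array stands for a different animal is not labelled, so a p-value here reflects only sample-to-sample spread, some of which may be technical, and precision is limited by how few arrays there are.

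Proneural proteins of the Neurod, Neurog and Atoh families are transcription activators that pair with widely expressed E proteins, bind E-box sequences and drive progenitors to become neurons. Hes and Hey proteins are bHLH repressors, most of them switched on by Notch signalling through the DNA-binding protein RBPJ, and most hold progenitors back from differentiation. Id proteins have the helix-loop-helix but no basic region, so they take up E proteins without binding DNA. In the eye these genes are best known from the neural retina, which shares its origin in the optic cup with the RPE, while RPE cells normally take no neuronal fate.

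Hey2 was the member that differed most steadily. The letters of its start region are shown because they hold matches to the core sequence of RBPJ sites, together with those of Id2, the repressor or inhibitor with the next lower log2 fold change. Both come from the RefSeq table of the mouse build GRCm38.p6 and run from 250 bases before to 10 bases after the gene start, 260 bases each, 5′ to 3′ on the strand of the gene. Hey2 lies on the minus strand at chr10:30842774-30843033 and Id2 on the minus strand at chr12:25096083-25096342. Capitals mark GTGGGAA, the RBPJ core searched on both strands, in Hey2, and the E-box CANNTG in Id2.
Hey2: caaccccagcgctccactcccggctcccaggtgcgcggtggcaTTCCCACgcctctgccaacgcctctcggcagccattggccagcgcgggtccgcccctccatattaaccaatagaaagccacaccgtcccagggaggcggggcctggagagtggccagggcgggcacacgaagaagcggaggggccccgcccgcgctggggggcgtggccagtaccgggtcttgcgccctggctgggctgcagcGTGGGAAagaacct
Id2: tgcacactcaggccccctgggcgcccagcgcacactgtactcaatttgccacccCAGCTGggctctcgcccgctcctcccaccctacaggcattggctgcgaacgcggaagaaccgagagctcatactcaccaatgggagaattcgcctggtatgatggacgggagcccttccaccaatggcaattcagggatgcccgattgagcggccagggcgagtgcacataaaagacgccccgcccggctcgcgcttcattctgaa

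The Hey2 window held 2 matches to GTGGGAA, 1 beginning 207 bases before the gene start on the opposite strand and 1 beginning 4 bases before it. Over the 32851 windows of 300 bases in the table (250 before to 50 after a start, several for some genes), 6.4% held at least 1 match and 0.26% held 2 or more. None of the other 8 members had a match in any of their windows. The E-box was present in 72.3% of all windows, and that of Id2 begins 196 bases before its start. The N-box CACNAG, to which Hes proteins bind, was searched too and was present in 42.5% of all windows. These are matches of letters, with no measure of binding in these data.

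Control array 4 stood apart from the other arrays, and results that move with it are given with and without it. Across all probe sets its Pearson correlation with the other 6 arrays was 0.943 to 0.951, against 0.980 to 0.984 among the Dicer1-deficient arrays and 0.986 to 0.988 among controls 1 to 3. The targeted gene, Dicer1, has 28 probe sets. Its brightest read 10.53, 10.71 and 10.47 in Dicer1-deficient arrays and 10.27, 10.65, 10.69 and 10.88 in controls on the log2 scale. Averaged over all 28, Dicer1 stood at -0.04 (adjusted p = 0.921 with limma), and at -0.10 without control 4 (adjusted p = 0.249). Neither reading showed a clear loss. The floxed stretch of Dicer1 is not given in the labels, and its other probe sets are not described singly here. These 2 readings therefore cannot tell whether part of the gene was lost. Of 18 RPE marker genes 5 were measured, all of them above the median log2 signal of the whole table (6.22) in every array, and the means of these 5 were 11.22 to 11.34 in Dicer1-deficient RPE and 11.63 to 11.79 in controls. Kcnj13, the gene of the apical Kir7.1 potassium channel, fell among them (log2 fold change -1.19, SE 0.14, limma adjusted p = 0.0051). With probe sets averaged 3 of the 5 fell, where 2.83% of all genes were called lower. With control 4 left out too 4 fell, where 10.3% of all genes were called lower. In such bulk samples fewer cells of a type and less RNA per cell cannot be told apart.

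Of the 9 genes, none passed limma's test at the brightest probe set of each gene, with p adjusted over all 5017 genes by the Benjamini-Hochberg method and a threshold of 0.05, which 2.33% of all genes passed. At an unadjusted p under 0.05, 4 members were counted with limma and 3 without its moderation of variances, where limma put 14.5% of all genes. The activators Neurod2, Neurod4, Neurog1 and Neurog3 had positive and Atoh7 had a slightly negative log2 fold change, with a median of 0.10 over these 5. The Hes, Hey and Id genes Hes6, Hey2, Id2 and Id4 all had negative values, with a median of -0.21. They were grouped by family, so that Hes6 is among them though it promotes neuronal differentiation. Without control 4 these medians were 0.26 and -0.31, and with probe sets averaged over the 7 arrays 0.10 and -0.06. Of all genes, 51.9% had a negative value and the median was -0.0095, or 0.03 without control 4. Groups were free of overlap for Hey2, lower in Dicer1-deficient RPE as for 7.02% of all genes, and for Neurog1, higher in Dicer1-deficient RPE as for 9.27%.

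**Figure D1:**
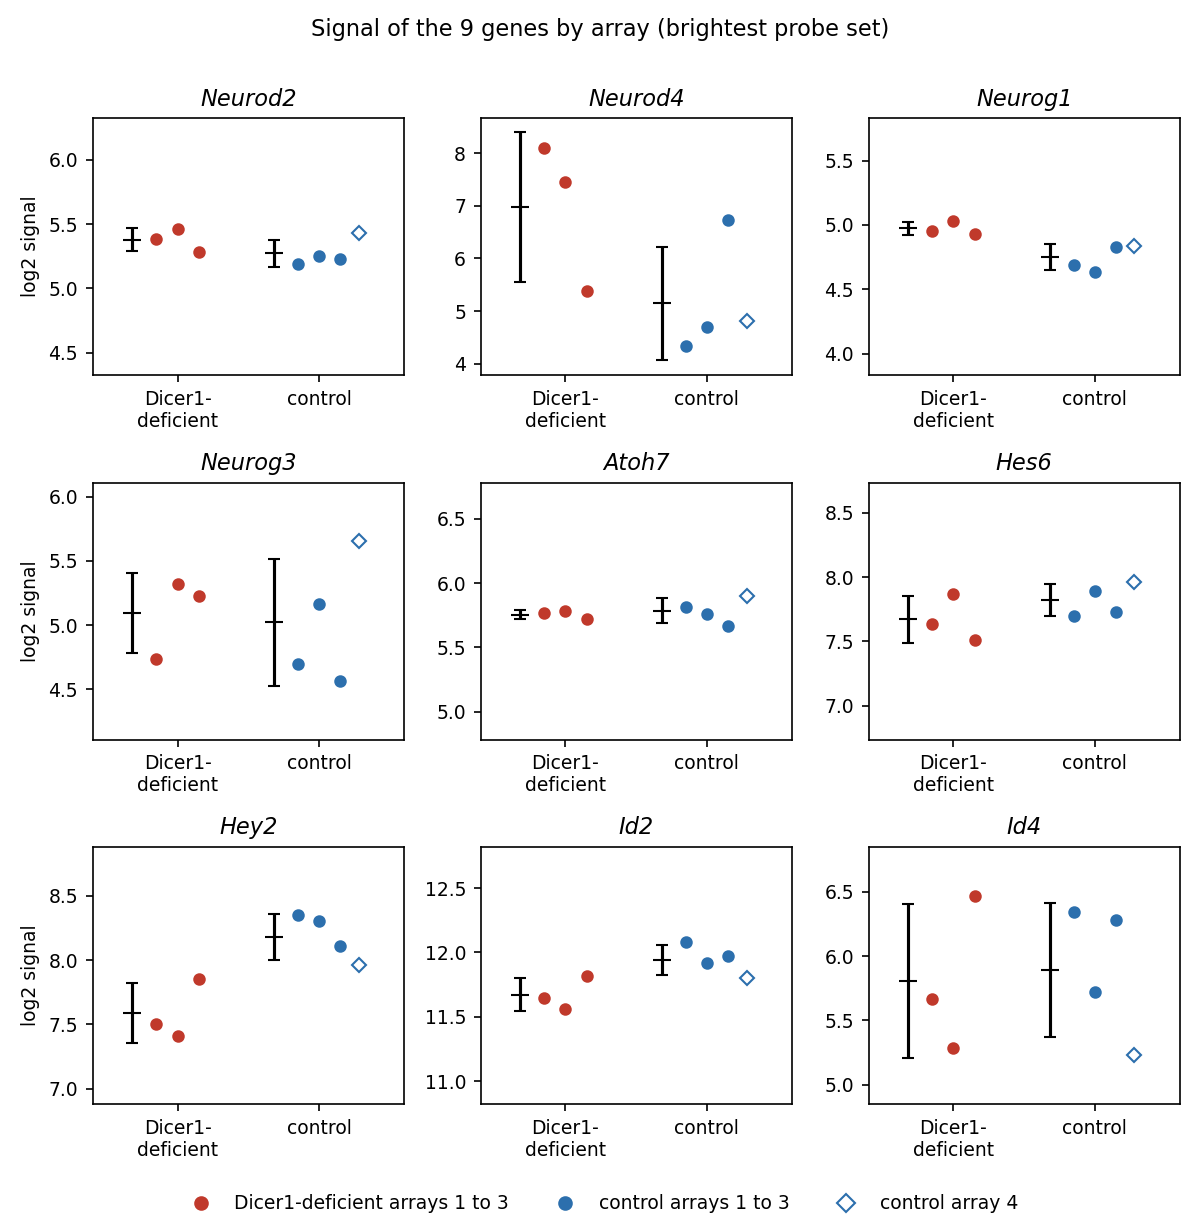
Log2 signal (vertical axis) of each gene at its brightest probe set in the 3 Dicer1-deficient arrays (red) and the 4 controls (blue, control 4 as an open diamond); black bars are the group mean ± SD, and each panel has its own axis of at least 2 log2 units. Hey2 and Neurog1 have groups that do not overlap, while Neurod4 spans 5.37 to 8.10 in Dicer1-deficient arrays and 4.34 to 6.73 in controls.

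Hey2, a repressor downstream of Notch that is known for its part in the heart and in arteries, was lower in all Dicer1-deficient arrays. Its brightest probe set, 10368560, read 7.51, 7.41 and 7.86 in Dicer1-deficient RPE, against 8.35, 8.30, 8.11 and 7.96 in controls. Every Dicer1-deficient array lay below every control, and the control nearest to them was control 4. The means were 7.59 ± 0.23 (SD, n = 3) in Dicer1-deficient and 8.18 ± 0.18 (SD, n = 4) in control arrays, a log2 fold change of -0.59 (SE 0.15, 95% interval -0.93 to -0.25, 0.664 times the control level). The adjusted p was 0.10 with limma, which does not pass.

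All 7 probe sets of Hey2 lay lower in Dicer1-deficient RPE, with log2 fold changes of -0.86 to -0.07 and a median of -0.59. For comparison, 50.3% of single probe sets lay lower, and all lay lower in 29 of the 262 genes with this number of probe sets (11.1%). In 4 of the 7 the groups did not overlap, where 6.62% of all probe sets were lower without overlap. Of the 262 genes, Hey2 included, 13 (4.96%) had at least as many such probe sets. Probe set 10368558 showed the widest difference, with 7.17, 6.62 and 7.29 in Dicer1-deficient arrays and 7.71, 7.64, 7.83 and 8.36 in controls. Probe set 10368562 read 5.04, 4.68 and 4.81 in Dicer1-deficient arrays and 6.24, 5.71, 5.86 and 4.85 in controls, so that control 4 alone fell among the Dicer1-deficient values. The 2 dimmest, 10368557 and 10368563, were below 6.22 in every array, where a signal may be no more than background, and had the smallest differences, -0.25 and -0.07.

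**Figure D2:**
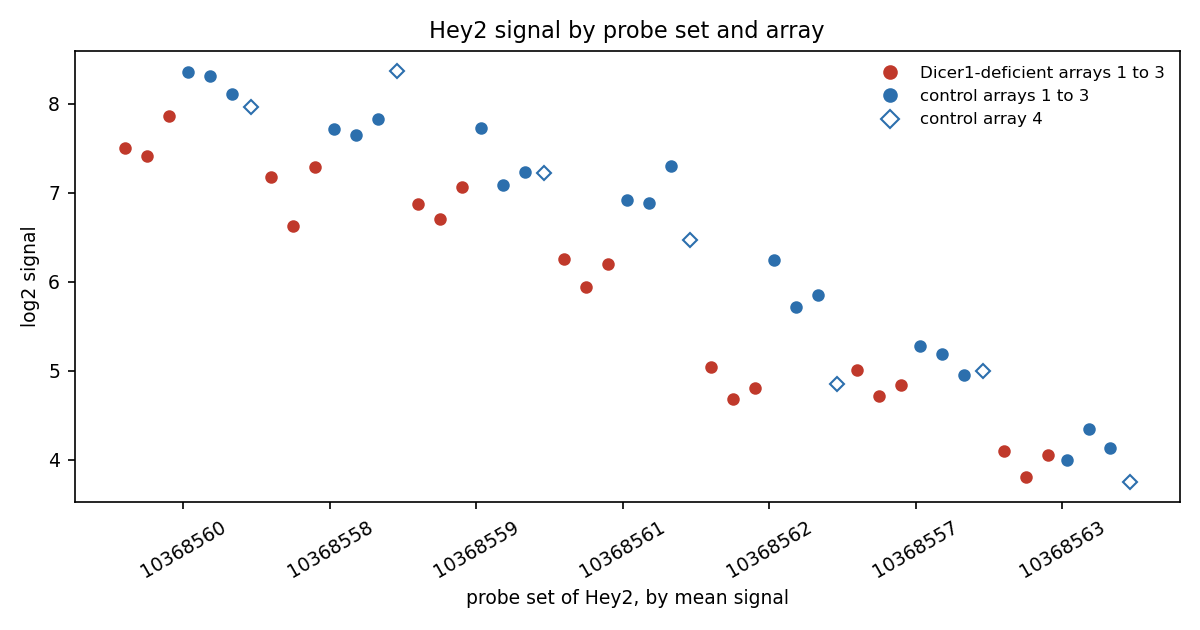
Log2 signal (vertical axis) of the 7 probe sets of Hey2 in each array, Dicer1-deficient in red to the left of control in blue, with control 4 as an open diamond; probe sets are ordered by mean signal over the arrays, and levels of different probe sets are not comparable. Controls 1 to 3 lie above every Dicer1-deficient array in 5 of the 7, and control 4 joins the Dicer1-deficient values at 10368562.

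Hey2 passed the test once its probe sets were averaged, though not on their median (-0.74, limma adjusted p = 0.0559). The mean of the 7 probe sets was 5.991, 5.698 and 6.017 in Dicer1-deficient RPE and 6.602, 6.453, 6.485 and 6.232 in controls, again without overlap. The log2 fold change was -0.54 (SE 0.12, limma adjusted p = 0.0267), and Hey2 was the single member called on such means, where 2.83% of all genes were called lower. Without control 4 it passed at the brightest probe set too, at -0.66 (adjusted p = 0.0406), where 2.01% of all genes were called lower. With probe sets averaged and control 4 left out it stood at -0.61 (adjusted p = 0.0041), beside 10.3% of all genes called lower. Of the single probe sets of all members none passed over all 53644, where 1.06% did, and 9 of the 35 had an unadjusted p under 0.05, 5 of them of Hey2, where 11.7% of all probe sets did. Without control 4 a pair of Hey2 probe sets passed, 10368561 at -0.90 (adjusted p = 0.0390) and 10368562 at -1.09 (adjusted p = 0.0290), where 1.11% of all probe sets were called lower.

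Mean marker levels of connective tissue lay lower in Dicer1-deficient RPE, as did Hey2. The mean of 9 measured fibroblast and scleral genes of 11 listed was 10.77 to 11.01 in Dicer1-deficient RPE and 11.14 to 11.28 in controls. At the brightest probe set 8 of the 9 were lower and none passed limma's test. Col1a1 (-0.0083), Lum (-0.041) and Col3a1 (0.012), named after their values were seen, were close to level there. On the mean of probe sets 2 fell, where 2.83% of all genes were called lower. Without control 4 as well 5 fell, where 10.3% of all genes were called lower. Col1a1 (-0.36, limma adjusted p = 0.0278) and Col3a1 (-0.33, limma adjusted p = 0.0106) were among these 5. Lum was not (-0.20, limma adjusted p = 0.0931). Omd, the gene of osteomodulin, stood at -0.92 (adjusted p = 0.0587) and Fmod, that of fibromodulin, at -0.60 (adjusted p = 0.124). The 3 measured genes of 7 listed for melanocytes and neural crest had means of 8.33 to 8.47 in Dicer1-deficient RPE and 8.83 to 9.26 in controls, all 3 of them lower and none called, against 2 called lower on the mean of probe sets. None of these genes read below 6.22 in all arrays. Of 8 endothelial genes only Pecam1 was measured, at 9.83 ± 0.26 (SD, n = 3) in Dicer1-deficient and 9.92 ± 0.11 (SD, n = 4) in control arrays. The part of these marker levels in the Hey2 difference was not tested.

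Id2, which is active in many tissues, had a smaller difference of the same sign. Its brightest probe set, 10399694, read 11.64, 11.56 and 11.82 in Dicer1-deficient RPE and 12.08, 11.92, 11.98 and 11.80 in controls. Dicer1-deficient array 3 lay just above control 4, and all Dicer1-deficient arrays lay below controls 1 to 3. The log2 fold change was -0.27 (95% interval -0.53 to -0.01, limma adjusted p = 0.326), or -0.32 without control 4 (adjusted p = 0.112), when the groups did not overlap as for 12.0% of all genes lower in Dicer1-deficient RPE. The 3 bright probe sets had values of -0.27, -0.18 and -0.24. At the last of these, 10399695, the groups did not overlap, as for 6.62% of all probe sets lower in Dicer1-deficient RPE (limma adjusted p = 0.468). The fourth, 10399692, had a value of 0.33. Control 4 read 6.11 there, against 7.17 to 7.40 in the other controls, and without that array the value was 0.02. On the mean of probe sets, which includes it, the value for Id2 was -0.09 (adjusted p = 0.850), and -0.20 without control 4 (adjusted p = 0.0932).

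Id4, an inhibitor best known in neural precursors, showed no steady difference. Its brightest probe set read 5.67, 5.29 and 6.47 in Dicer1-deficient arrays and 6.34, 5.72, 6.28 and 5.23 in controls, so that each group spanned more than 1 log2 unit and the groups overlapped throughout. Both the highest and the second lowest of the 7 values were Dicer1-deficient. The log2 fold change was -0.09 (95% interval -0.90 to 0.72, limma adjusted p = 0.971), and its sign turned on the mean of the 3 probe sets (0.08). Probe set 10404977 alone had groups that did not overlap, with 5.79, 5.76 and 5.94 in Dicer1-deficient arrays and 5.68, 5.25, 5.48 and 4.69 in controls, as for 7.35% of all probe sets higher in Dicer1-deficient RPE. Its adjusted p was 0.411 with limma, and every value was below 6.22.

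Hes6, a Hes family member that in contrast to Hes1 promotes neuronal differentiation, was close to level. It read 7.63, 7.87 and 7.51 in Dicer1-deficient RPE and 7.70, 7.89, 7.73 and 7.97 in controls at its brightest probe set. The groups overlapped, and the log2 fold change was -0.15 (95% interval -0.44 to 0.14, limma adjusted p = 0.714). Of its 6 probe sets 4 were lower and 2 higher, with values of -0.23 to 0.38. Its second brightest probe set, 10356595, read 7.40, 7.30 and 7.11 in Dicer1-deficient arrays and 7.51, 7.74, 7.41 and 7.35 in controls. Its log2 fold change was -0.23, and -0.28 without control 4 (limma adjusted p = 0.335).

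Neurod4, an activator that takes part in the making of retinal interneurons, had the widest spread of the 9 genes. Its brightest probe set, 10373682, read 8.10, 7.45 and 5.37 in Dicer1-deficient RPE and 4.34, 4.70, 6.73 and 4.81 in controls. Dicer1-deficient arrays 1 and 2 lay above all controls, while array 3 lay below control 3. The means were 6.98 ± 1.43 (SD, n = 3) in Dicer1-deficient and 5.15 ± 1.08 (SD, n = 4) in control arrays, a log2 fold change of 1.83 (95% interval 0.08 to 3.58, limma adjusted p = 0.325). The SD within groups was 1.23, larger than that of 99.9% of all genes. The other probe sets ordered the arrays in much the same way: 10373683 read 6.12, 5.29 and 3.57 in Dicer1-deficient arrays and 3.05, 3.18, 4.17 and 3.05 in controls. All 3 were higher on average in Dicer1-deficient RPE, from 0.70 to 1.83, and neither the mean of probe sets (1.39, adjusted p = 0.165) nor leaving out control 4 (1.72, adjusted p = 0.280) brought a call. Over all alternatives the value ran from 0.80 on the median of probe sets to 2.63 without Dicer1-deficient array 3, with adjusted p of 0.148 to 0.721, and it was 2.36 without control 3 and 1.27 without Dicer1-deficient array 1.

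The genes whose pattern over the 7 arrays was most like that of Neurod4 were Pde6g, Pcdh15 and Amph, by the root mean square distance between log2 signals after each gene's mean was taken off (0.73, 0.82 and 0.83). Pde6g encodes a subunit of the phosphodiesterase of rods, Pcdh15 a protocadherin of hair cells and photoreceptors, and Amph the synaptic protein amphiphysin. Amph rose, by 1.99 (limma adjusted p = 0.0178), while Pde6g at 1.38 (adjusted p = 0.346) and Pcdh15 at 0.88 (adjusted p = 0.228) did not pass. Pde6g read 8.003, 7.438 and 6.149 in Dicer1-deficient arrays and 4.371, 6.133, 6.366 and 6.41 in controls. A like order of the arrays follows from how these 3 genes were chosen. Of 21 photoreceptor marker genes 6 were measured, Pde6g being 1 of them, with means of 6.35, 6.19 and 5.88 in Dicer1-deficient arrays and 5.05, 5.72, 5.89 and 5.95 in controls. In 5 of these 6 genes the log2 fold change was positive, none passed limma's test, and 2 were below 6.22 in every array. Of 11 retinal progenitor genes 3 were measured, 1 of them below 6.22 in every array. Their means were 8.17, 7.94 and 7.98 in Dicer1-deficient arrays and 7.35, 7.29, 7.57 and 7.67 in controls. Nr2e1, a nuclear receptor gene of progenitors, rose among them by 0.69 (limma adjusted p = 0.0155). On the mean of probe sets Nr2e1 did not pass (0.45, adjusted p = 0.0758), while Fabp7, a lipid carrier of progenitors and glia, did (0.68, adjusted p = 0.0037). The 9 measured genes of 24 for retinal neurons gave means of 6.561 to 6.624 in Dicer1-deficient arrays and 6.602 to 6.892 in controls. Of these genes 5 were higher and 4 lower, and 3 were below 6.22 in every array. Among them 2 fell, both without overlap. Nsg2, which encodes a vesicle protein of neurons, stood at -1.50 (limma adjusted p = 0.0011). Tfap2a, a transcription factor gene of amacrine cells and neural crest, stood at -0.99 (limma adjusted p = 0.0470). Tfap2b, named after its values were seen, was higher without overlap but not called, at 0.86 (limma adjusted p = 0.0938). Averaging all probe sets of each gene left Nsg2 lower at -0.52 (limma adjusted p = 0.0122) and Tfap2a at -0.78 (limma adjusted p = 0.0109). Tfap2b was then called higher, at 0.81 (limma adjusted p = 0.0437). The part of these marker levels in the Neurod4 difference was not tested.

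**Figure D3:**
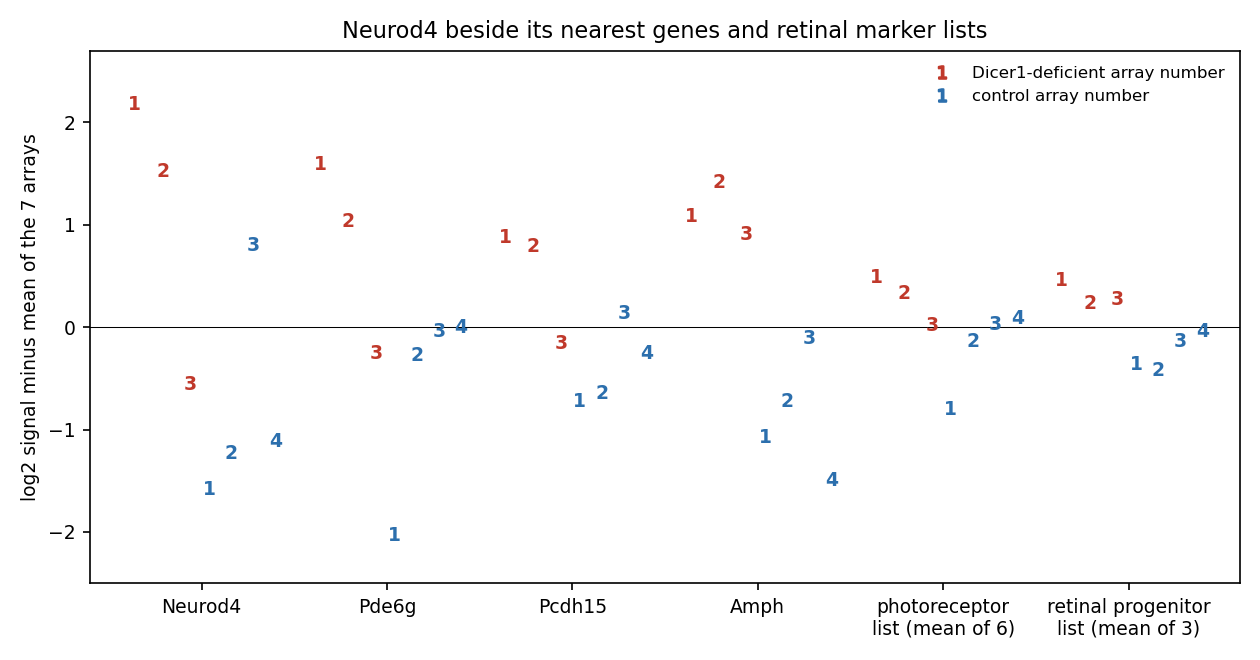
Log2 signal minus the mean of the 7 arrays (vertical axis) for Neurod4, its 3 nearest genes and the means of the photoreceptor and retinal progenitor lists; figures are array numbers, Dicer1-deficient in red to the left of control in blue. The 3 genes were chosen for their likeness to Neurod4 over these arrays, and Pde6g is also 1 of the 6 genes in the photoreceptor mean, which spans 5.88 to 6.35 in Dicer1-deficient arrays and 5.05 to 5.95 in controls before centring.

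Neurog1, which specifies sensory neurons of the cranial ganglia and inner ear, had a small difference at a low signal. It read 4.96, 5.03 and 4.93 in Dicer1-deficient RPE and 4.69, 4.63, 4.83 and 4.84 in controls at its brightest probe set, without overlap. The log2 fold change was 0.23 (95% interval 0.00 to 0.45, limma adjusted p = 0.346). All 3 of its probe sets were below 6.22 in every array, and on their mean the difference was 0.10 (adjusted p = 0.741).

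Neurod2, a gene of maturing cortical neurons, also read low in every array. Its brightest probe set read 5.38, 5.46 and 5.28 in Dicer1-deficient RPE and 5.19, 5.25, 5.23 and 5.43 in controls. Control 4 lay among the Dicer1-deficient arrays, which were all above controls 1 to 3. The log2 fold change was 0.10 (95% interval -0.13 to 0.34, limma adjusted p = 0.778). The dimmest probe set of Neurod2, 10390621, read 4.69, 4.58 and 4.93 in Dicer1-deficient arrays and 4.47, 4.07, 3.97 and 4.08 in controls. Its groups did not overlap, as for 7.35% of all probe sets higher in Dicer1-deficient RPE. The log2 fold change there was 0.59 (limma adjusted p = 0.194). On the mean of its 3 probe sets the arrays read 5.10, 5.20 and 5.22 in Dicer1-deficient RPE and 4.84, 4.79, 4.61 and 5.09 in controls. The groups were then barely apart, as for 10.2% of all genes higher without overlap, and the log2 fold change was 0.34 (adjusted p = 0.142). Leaving out control 4 as well gave 0.42 (adjusted p = 0.0078), a call in a setting that called 6.74% of all genes higher. All 3 of its probe sets were also below 6.22 in every array.

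Neurog3, the gene of endocrine precursors of the pancreas, and Atoh7, which is needed for retinal ganglion cells, showed no difference larger than their spread. Neurog3 read 4.74, 5.32 and 5.23 in Dicer1-deficient arrays and 4.70, 5.17, 4.57 and 5.65 in controls at its brightest probe set. Control 4 was the highest of all, and the log2 fold change was 0.07 (95% interval -0.56 to 0.71, limma adjusted p = 0.969), or 0.28 without that array (adjusted p = 0.462). All 5 probe sets of Neurog3 were below 6.22 in every array. The single probe set of Atoh7 read 5.76, 5.78 and 5.72 in Dicer1-deficient arrays and 5.81, 5.76, 5.67 and 5.90 in controls. Its log2 fold change of -0.03 had the narrowest interval of the 9 genes, -0.25 to 0.19 (limma adjusted p = 0.964), and it too was below 6.22 in every array.

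**Figure D4:**
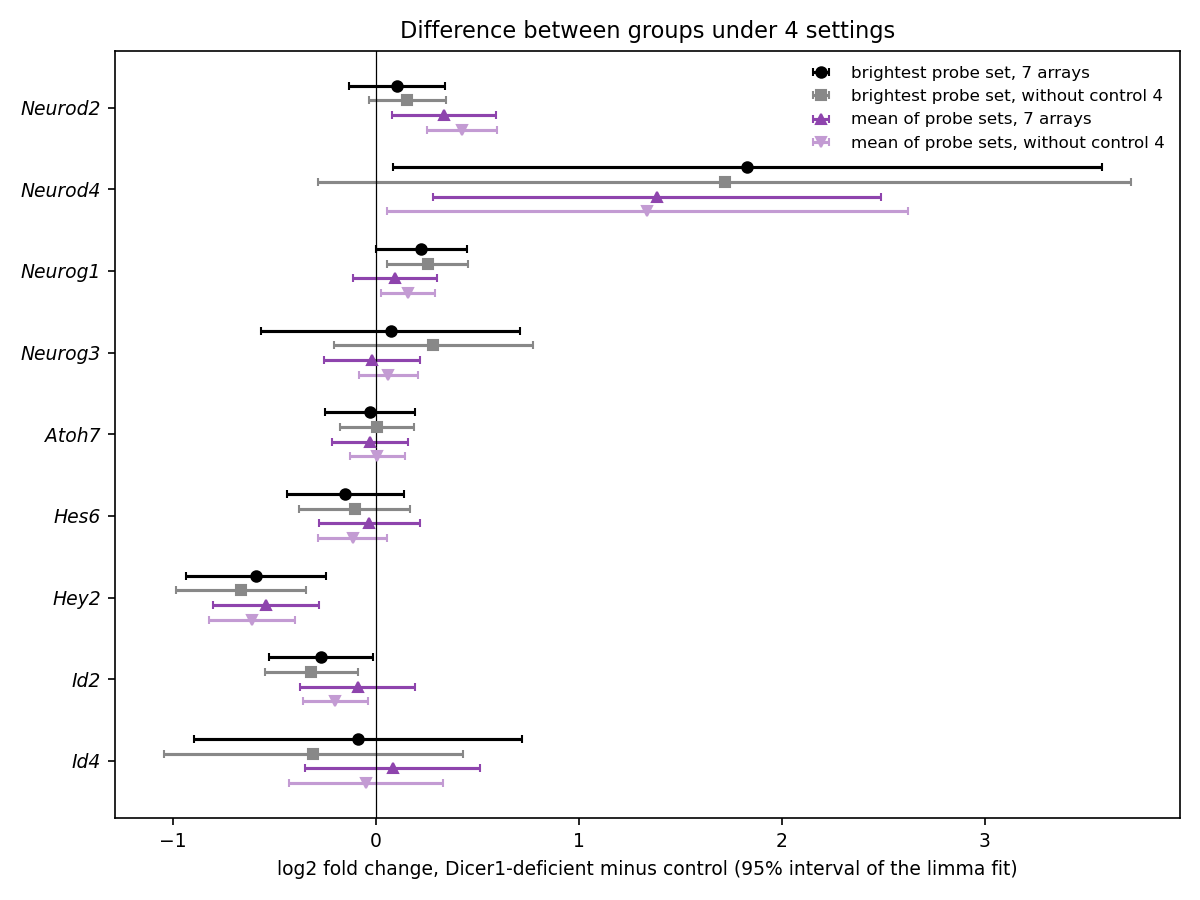
Log2 fold change, Dicer1-deficient minus control (horizontal axis), with 95% intervals of the limma fit for each gene at the brightest probe set or on the mean of its probe sets, with 7 arrays or without control 4. Hey2 lies below 0 with its whole interval in all 4 settings, from -0.66 to -0.54, and Neurod4 has the widest intervals.

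Outside the 9 members, the wider bHLH family gave 1 call. Of 10 measured neural bHLH activators of 25 listed none passed limma's test, 2 had an unadjusted p under 0.05 (Neurod4 and Neurog1, both higher), and the median log2 fold change was 0.0084, or 0.03 without control 4. Nhlh1, a gene of newly born neurons that is not among the members, stood at -0.33 (adjusted p = 0.348). It was below 6.22 in every array, at 3.82 to 3.90 in Dicer1-deficient arrays and 3.97 to 4.44 in controls. Of 5 measured Hes, Hey and Id genes of 16 listed, Hes7 was the single addition, at 0.02, none passed, 2 had an unadjusted p under 0.05 (Hey2 and Id2) and the median was -0.15, or -0.31 without control 4. The one E protein gene measured of 3, Tcf3, which encodes a partner of proneural and Id proteins, stood at 0.36 (adjusted p = 0.546), or 0.16 without control 4 (adjusted p = 0.426).

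Of 23 measured genes of 60 listed for the rest of the bHLH family, 1 rose and none fell, with a median of -0.05, or 0.15 without control 4. Mycn, a growth-promoting factor, rose: it read 7.40, 6.69 and 7.01 in Dicer1-deficient RPE and 5.74, 5.99, 5.75 and 5.47 in controls, without overlap (log2 fold change 1.30, SE 0.19, limma adjusted p = 0.0155). All its control signals were below 6.22, and on the mean of its 4 probe sets the value was 0.52 (adjusted p = 0.0122). Twist1, a factor of mesenchyme and neural crest, had groups that did not overlap, at -0.57 (adjusted p = 0.125), and like Hey2 it passed with probe sets averaged (-0.56, adjusted p = 0.0424) and without control 4 (-0.65, adjusted p = 0.0406). Hif1a, named here after its values were seen, passed on the mean of probe sets as well (0.51, adjusted p = 0.0124).

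Of 51 genes listed for the Notch pathway 14 were measured, and none passed limma's test at the brightest probe set. An unadjusted p under 0.05 was reached by 3 of them, and the median log2 fold change was -0.10, or 0.05 without control 4. These 3 were Dlk1, a membrane protein related to Notch ligands (-0.27, adjusted p = 0.210), the ligand gene Jag2 (-0.28, adjusted p = 0.322) and the coactivator gene Maml1 (0.53, adjusted p = 0.298). With probe sets averaged and control 4 left out, 4 of the 14 were called lower and none higher, in the setting that called 10.3% of all genes lower. They were Dlk1 (-0.24), Rfng (-0.33), Aph1a (-0.21) and Tle5 (-0.21), the last 3 named after their values were seen.

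**Figure D5:**
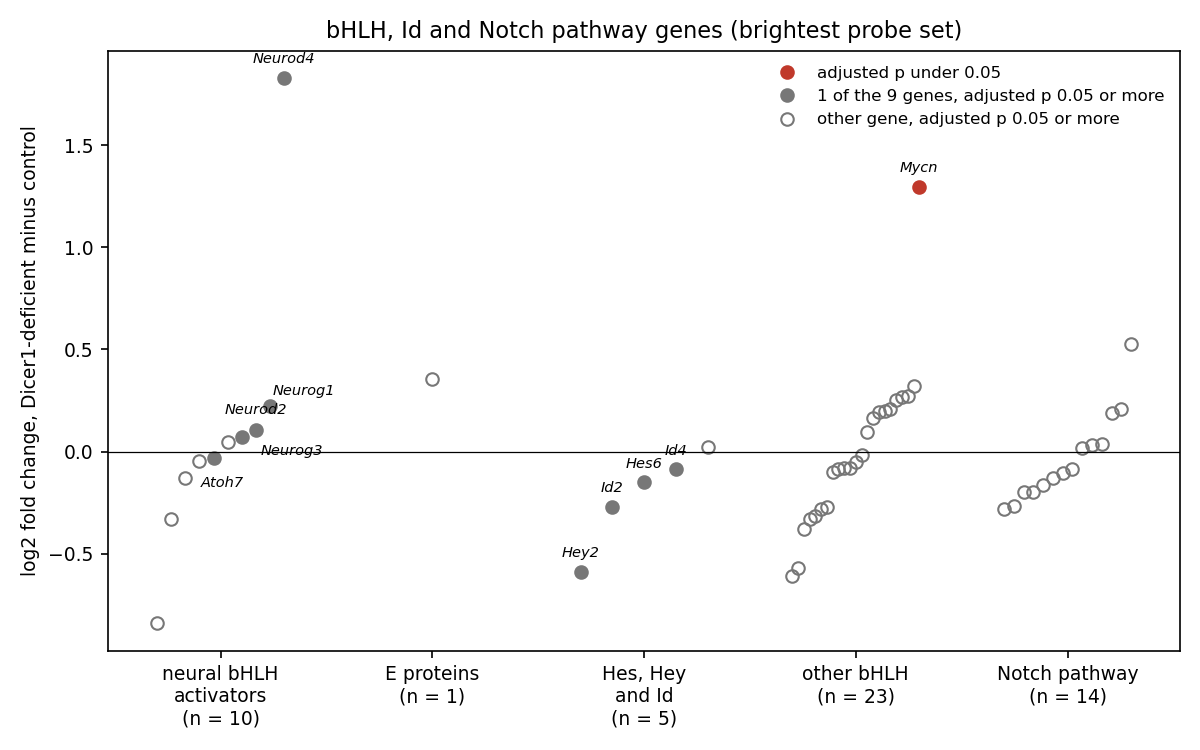
Log2 fold change, Dicer1-deficient minus control (vertical axis), at the brightest probe set for the measured genes of 5 lists, ordered by value within a list; red is adjusted p under 0.05 by limma, filled grey marks the members described above. Mycn at 1.30 is the single call, Neurod4 at 1.83 lies higher without one, and Hey2 at -0.59 is the lowest of the Hes, Hey and Id genes.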

How the data were processed

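Per the labels' protocols, the total RNA of each RPE sample carried a biotin label. The log2 table that the authors deposited holds 7 arrays and 65535 probe sets, each for part of a gene, where whole genes had been assumed in the design. The submitters' processing notes name RMA and Partek 6.6 without their roles. That the scale is log2 follows from the range of the values (2.71 to 13.5). No genome build or filter is given in those sources, and no detection calls were used. Symbols were updated with RefSeq's gene table (GRCm38.p6), which gave 5017 genes, 4918 of them on chromosomes 1, 10, 11, 12 and 13. Other chromosomes were mostly not analysed here. The number of probe sets equals the most that an older spreadsheet format holds below a header line, so the table may be cut short, and shares of all genes refer to the genes it holds. The members and lists were chosen with earlier results of these data known. Each gene was read at its brightest probe set (by the mean of the 7 arrays), without a filter on dim genes. The group difference was fitted in limma by lmFit and eBayes (two-sided p, adjusted by Benjamini-Hochberg across 5017 genes, 2.82 prior and 5 residual degrees of freedom). The same fit was run on all single probe sets. Named genes are the members, list genes past the threshold or among the 3 smallest p of a list (2 of a marker list), Dicer1, and the 3 nearest genes of a member. Nearest genes were computed for Neurod4, Id4 and Neurog3, the members with the largest SD over the arrays; those of Id4 (0.21 to 0.22 away) and Neurog3 (0.12 to 0.13) included no gene past the test. The labels give no pairing and no batch. The code was tested on simulated data. Alternatives are given in the closing section. Tools were R 4.3.3, limma 3.58.1, Python 3.11.15, pandas 2.3.3 and matplotlib 3.10.9.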

Additional observations from a re-analysis of the deposited data

Results flagged for a closer look

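Among the 35 member probe sets, 2 had a control array set apart from the other 3 by most of the range of the group, and chance alone flags about 1 in 20 groups. At Neurod4 probe set 10373683, control 3 read 4.17 against 3.05 to 3.18 in the other controls, a gap of 0.886 of the range. At Neurog3 probe set 10363550, control 4 read 4.55 against 3.94 to 3.99, a gap of 0.924 of the range. Both probe sets read below the median of all probe sets in the controls.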

How the results depend on the processing

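The count of genes past limma's test was 117, and it was 294 on the mean of probe sets, 176 on their median, 74 with arrays centred on their medians, 76 without moderation, 385 with array weights, 853 on the mean without control 4, and 33 to 260 with 1 array left out (33, 45 and 44 without Dicer1-deficient 1, 2 and 3, and 62, 46, 64 and 260 without control 1, 2, 3 and 4). Members past the test numbered 0, but 1 (Hey2) on the mean of probe sets and with array weights (-0.60, adjusted p = 0.0270), 2 (Hey2 and Neurod2) on the mean without control 4, and 0 to 1 with 1 array left out, the 1 being Hey2 without control 4. Member probe sets past the test numbered 0 to 2 with 1 array left out. The log2 fold change of Hey2 was -0.74 to -0.50 over 18 alternatives, adjusted p 0.0041 to 0.319, and the signs of Neurod2, Neurod4, Neurog1, Hey2 and Id2 held in all their alternatives. Signs turned for Neurog3 on the mean (-0.020) and median (-0.062) of probe sets, for Id4 on the mean (0.083) and median (0.19), for Hes6 on the median (0.084), and for Atoh7 with array weights (0.017) and on its probe set without control 4 (0.0082). With 1 array left out Neurog3 ran from -0.078 to 0.28, Id4 from -0.42 to 0.17 and Atoh7 from -0.069 to 0.0082. The causes were not tested. Members dropped by a filter on dim genes have no value there, which leaves 2 above the median and 6 above the lower quartile. No paired analysis was possible because the labels give no replicate numbers. Signals below the median of all probe sets may lie at background, so small differences of Neurod2, Neurog1, Neurog3 and Atoh7 could not be resolved.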
